A study of Rattus norvegicus with 9 samples.

Results

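KDR and VWF were the 2 genes studied here among the 22512 entries of an RNA-seq table of cultured neonatal rat cardiac fibroblasts (CFs), and both were taken by their symbol, with their values in all 9 libraries. KDR is the main signalling receptor for vascular endothelial growth factor (VEGF), a tyrosine kinase at the surface of endothelial cells that drives their growth, migration and permeability. VWF is a large glycoprotein made by endothelial cells and megakaryocytes, which tethers platelets to injured vessel walls and carries coagulation factor VIII in the blood. Both genes are widely used to mark the endothelial cells that line the vessels and chambers of the heart, and neither is a defining gene of fibroblasts.

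The 3 groups of 3 libraries were the blank group, which received no treatment, the AngII group, in which CFs were exposed to 0.1 µM angiotensin II for 72 h, and the vericiguat + AngII treatment group, in which 1.0 µM vericiguat for 24 h preceded the same AngII exposure according to the labels. The study's methods give the opposite order, with other times, for its migration assay, and the order for the sequenced cultures follows the labels here. AngII is a peptide hormone used to activate fibroblasts, and vericiguat is a drug that raises cGMP in cells by stimulating soluble guanylate cyclase. CFs were isolated from hearts by differential adherence, a step that keeps the cells that attach fastest, and were used at passage 2 or 3. The labels do not say whether the 3 libraries of a group came from separate animals or cultures, so the p-values measure only the spread between these libraries, which may be technical.

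The values were FPKM, sequenced fragments per kilobase of gene and per 1000000 mapped fragments, so levels of different genes could be compared within a library. Counts were not given, the depth of the libraries is unknown, and a value of 0 is reported as listed at 0. The submitters' processing notes name the genome build OryCun2.0, which is a rabbit assembly, although the samples are labelled as rat. The effect of that reference on the FPKM of KDR and VWF was not tested. In the table, 13 entries whose names start with KEF51 held 97.6% to 97.9% of the summed FPKM in blank, 96.7% to 97.5% in AngII and 45.3% to 52.3% in vericiguat + AngII libraries, so the sum of all other entries was 30992 to 37728, 45747 to 57618 and 426296 to 433771. Each gene was therefore also expressed relative to that sum, as FPKM per 1000000 of the non-KEF51 sum (ppm). A single entry, ADORA1-2, which was singled out after its values were seen, held 59.7% to 90.0% of the non-KEF51 sum in blank, 71.7% to 80.0% in AngII and 17.1% to 27.8% in vericiguat + AngII libraries, and levels with this entry left out of the sum are given as well.

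One blank library stood between the others. Among 1529 entries that reached an FPKM of 1 and in which blank libraries 1 and 2 differed by more than 20%, the value of blank library 3 lay between them in 1486 (97.2%), while the same share was 2.00% to 62.4% for the other 8 libraries. VWF followed this order, and comparisons with the blank group are given with and without blank library 3. The cell type of the label was checked with lists of marker genes. Of 14 fibroblast markers, COL1A2, DCN, LUM and FN1 were listed by symbol, with a summed FPKM of 1.70 to 24.7 in the blank, 7.09 to 25.7 in the AngII and 368 to 527 in the vericiguat + AngII libraries. Of 15 cardiomyocyte markers, 7 were listed, with sums of 6.95 to 9.68, 47.0 to 114.3 and 3958 to 6357, and the sarcomere gene MYH7 alone reached 2766 to 4346 in the vericiguat + AngII libraries.

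KDR was listed at 0 in all 3 blank libraries. In the AngII libraries its FPKM was 0.040, 0.151 and 0.146. In the vericiguat + AngII libraries it was 39.3, 47.0 and 50.3. All 3 groups were thus separate, with the highest values in the vericiguat + AngII group by a wide margin and values under 1 FPKM everywhere else. Of the entries that reached 1 FPKM in 3 libraries or more, 99.7% were higher in every vericiguat + AngII than in every AngII library. The share was 99.6% for vericiguat + AngII over blank and 19.8% for AngII over blank. The group means were 0, 0.112 ± 0.0627 and 45.6 ± 5.64 FPKM (SD, n = 3 each).

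**Figure D1:**
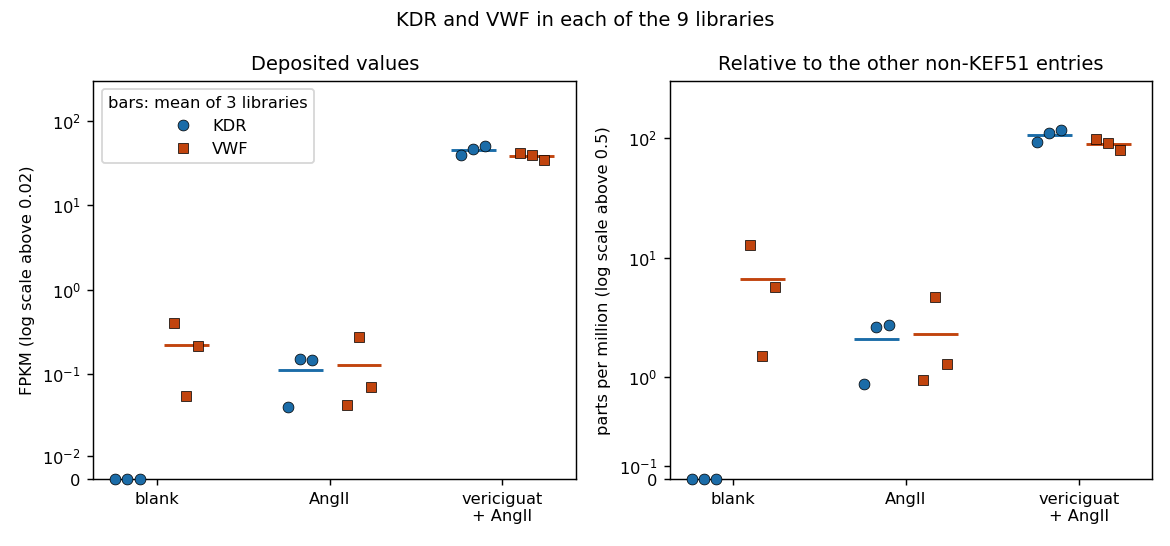
KDR (circles) and VWF (squares) in each of the 9 libraries, as deposited FPKM on the left and as ppm of the non-KEF51 sum on the right. Both vertical axes are logarithmic except near 0, where they are linear, and bars mark the mean of 3 libraries. KDR sits at 0 in the blank libraries and at 39.3 to 50.3 FPKM in the vericiguat + AngII libraries, and VWF is at most at 0.398 FPKM elsewhere and at 34.2 to 42.0 FPKM there.

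Relative to the other entries of each library, KDR was again at 0 in the blank group. It took 0.874, 2.62 and 2.71 ppm in the AngII libraries and 92.3, 109.6 and 116 ppm in the vericiguat + AngII libraries. The gap between the last groups was narrower than in FPKM, with a ratio of means of 51.3 in ppm against 405.5 in FPKM, and the groups still did not overlap. With ADORA1-2 left out of the sum, KDR was at 3.79, 13.1 and 9.56 ppm with AngII, then at 111, 136 and 161 ppm with vericiguat + AngII.

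The place of KDR among the entries of its own library does not depend on any scaling. In the AngII libraries 17.3%, 42.9% and 47.0% of the non-KEF51 entries above 0 were lower than KDR. In the vericiguat + AngII libraries 92.7%, 94.2% and 94.9% were lower, and 1223, 950 and 833 entries were higher. KDR thus went from below the middle of the detected entries to their upper end. The number of such entries was 9902 to 10425 in the AngII and 16445 to 16751 in the vericiguat + AngII libraries. Its FPKM was 0.288, 0.770 and 0.896 times the median of the entries above 0 in the AngII libraries, and 11.2, 14.7 and 15.4 times that median in the vericiguat + AngII libraries.

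A listing at 0 in every blank library was shared by 1996 of the 10895 non-KEF51 entries that were tested (18.3%), and 499 of all tested entries (4.58%) were, like KDR, also above 0 in every AngII library. It was less frequent among entries as high as KDR. Of 983 entries whose mean in the vericiguat + AngII group was at least that of KDR, 14 (1.42%) were at 0 in all blank libraries. Those with a symbol were CKMT2, FADS2, KCNJ2 and KDR itself, a count that was chosen after the values were seen. No ratio of means against the blank group is given for KDR, because 0 in a table without counts sets no lower bound, and the log2 differences against blank given below for log2(value + 1) depend on the added 1.

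Of the 2 genes, the rat promoter table of RefSeq held Kdr. Its window is the one printed for that reason. It spans 250 bases before to 50 bases after the start site on the plus strand of GRCr8, chr14:32571813-32572112. Capitals mark the matches to 3 short motifs searched on both strands, GGAA or TTCC (the core bound by ETS factors, many of which act in endothelial cells), GATA or TATC (the core bound by GATA factors) and GGGCGG or CCGCCC (the GC box).
Rat Kdr promoter: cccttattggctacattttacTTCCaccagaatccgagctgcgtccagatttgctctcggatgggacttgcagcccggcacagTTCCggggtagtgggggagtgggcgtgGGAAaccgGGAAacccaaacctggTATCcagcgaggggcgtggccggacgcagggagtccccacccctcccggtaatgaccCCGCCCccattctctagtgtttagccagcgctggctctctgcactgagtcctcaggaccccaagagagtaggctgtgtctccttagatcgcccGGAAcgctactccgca
The window held 5 matches of the ETS core, which begin at -229, -167, -140, -132 and 34 bases from the start site, against a median of 3 in the 33469 promoters of the table. The GATA core matched once, at -116 bases, and the GC box once, at -59 bases. At least 1 match was present in 95.8% of all promoters for the ETS core, in 60.5% for the GATA core and in 33.1% for the GC box, and no 2 of the matches in Kdr overlapped. The GC content was 61%, against a median of 51.7%, and 23.9% of promoters had at least that content. These matches describe letters in the rat sequence, and no file measured binding or accessibility there.

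VWF was low in both groups without vericiguat. Its FPKM was 0.398, 0.054 and 0.215 in the blank libraries. In the AngII libraries it was 0.043, 0.270 and 0.070. In the vericiguat + AngII libraries it was 42.0, 39.2 and 34.2. Blank and AngII values overlapped, and every vericiguat + AngII value was above every other. The same held in FPKM for 99.7% of tested entries against AngII and for 99.6% against blank. The group means were 0.222 ± 0.172, 0.128 ± 0.124 and 38.5 ± 3.94 FPKM (SD, n = 3 each).

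On the relative scale VWF took 12.8, 1.49 and 5.70 ppm in the blank libraries. It took 0.940, 4.69 and 1.30 ppm in the AngII libraries and 98.6, 91.5 and 79.0 ppm in the vericiguat + AngII libraries. The order of the groups was the same as in FPKM, with blank and AngII overlapping. The ratio of the vericiguat + AngII mean to the AngII mean was 38.8 in ppm and 301.5 in FPKM, and to the blank mean it was 13.4 in ppm and 173.1 in FPKM. Without ADORA1-2 in the sum, VWF stood at 31.9, 14.9 and 27.8 ppm in the blank libraries, 4.07, 23.4 and 4.58 ppm with AngII and 119, 113 and 109 ppm with vericiguat + AngII.

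Within its library, VWF was higher than 65.0%, 41.1% and 63.6% of the entries above 0 in blank libraries. In AngII libraries it was higher than 19.1%, 58.4% and 26.9%. In the vericiguat + AngII group the shares were 93.1%, 93.2% and 92.5%. VWF therefore lay near the middle of the detected entries of the blank libraries and, as KDR did, near the upper end of those of the vericiguat + AngII libraries, at 12, 12.3 and 10.4 times their median.

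The question of the comparison between AngII and blank was which genes AngII alone changed, and neither member passed the test. A call required a log2 fold change of 1 or more in size and, in limma, an adjusted p (Benjamini-Hochberg) under 0.05, in a fit over all entries that reached 1 FPKM in 3 libraries or more. Both members passed this filter only through the vericiguat + AngII libraries. On log2(FPKM + 1), which compresses values below 1, KDR differed by 0.15 (SE 0.158, adjusted p = 0.772) and VWF by -0.11 (SE 0.177, adjusted p = 0.895), while 1.44% of the 10908 entries tested were called higher. On log2(ppm + 1) the difference of KDR was 1.55 (SE 0.543, adjusted p = 0.121) and that of VWF -1.06 (SE 0.736, adjusted p = 0.421), with 5.38% of 10895 entries called higher and 1.04% lower.

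The members lay on opposite sides of the median of all entries, which was 0.24 on the relative scale. KDR was exceeded by 12.7% of the entries and VWF by 87.8%. For KDR every AngII library was above every blank library, as it was for 13.5% of entries in ppm and 19.8% in FPKM, and the exact two-sided permutation test gave p = 0.1, the smallest that 3 libraries against 3 allow. For VWF the exact permutation test gave p = 0.2 in ppm and p = 0.6 in FPKM. The outcome for KDR depended on the scale: with ADORA1-2 left out of the sum it was called higher with AngII (3.16, adjusted p = 0.0118), as were 8.78% of entries, and with median-ratio scaling it was called as well (2.02, adjusted p = 0.0192), as were 11.1%. Without blank library 3 the relative difference was 1.55 (adjusted p = 0.326) for KDR and -0.999 (adjusted p = 0.628) for VWF. The difference of VWF was -0.48 (adjusted p = 0.678) without blank library 1 and -1.71 (adjusted p = 0.0686) without blank library 2.

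The comparison of vericiguat + AngII with AngII asked what vericiguat changed in CFs that also received AngII, and both members were called higher, as were most entries of the table. On log2(FPKM + 1) KDR was higher by 5.38 (SE 0.158, adjusted p = 2.53e-10) and VWF by 5.13 (SE 0.177, adjusted p = 2.57e-10). Among all entries tested 99.5% were called higher, so the calls themselves say nothing particular about the members. The size of the differences is given beside the median of all entries, 2.76, which KDR exceeded by 2.62 and VWF by 2.37. A larger difference was found in 250 entries (2.29%) for KDR and in 386 (3.54%) for VWF.

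On the relative scale KDR was higher by 5.18 (SE 0.543, adjusted p = 1.58e-05) and VWF by 4.94 (adjusted p = 0.000222), with 76.9% of all entries called higher. The median of all entries was 2.26, and KDR lay 2.93 and VWF 2.68 above it. KDR was exceeded by 64 entries (0.587%) and VWF by 89 (0.817%). These ranks describe the members and are no test, since both passed the filter only through the libraries in which they are high. As plain ratios of group means, the median over entries above 0 in the AngII group was 5.63 in ppm, and the ratios of KDR and VWF were 9.10 and 6.90 times that median. The groups were separate for both members, as for 90.5% of entries, with p = 0.1 in the exact two-sided permutation test.

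**Figure D2:**
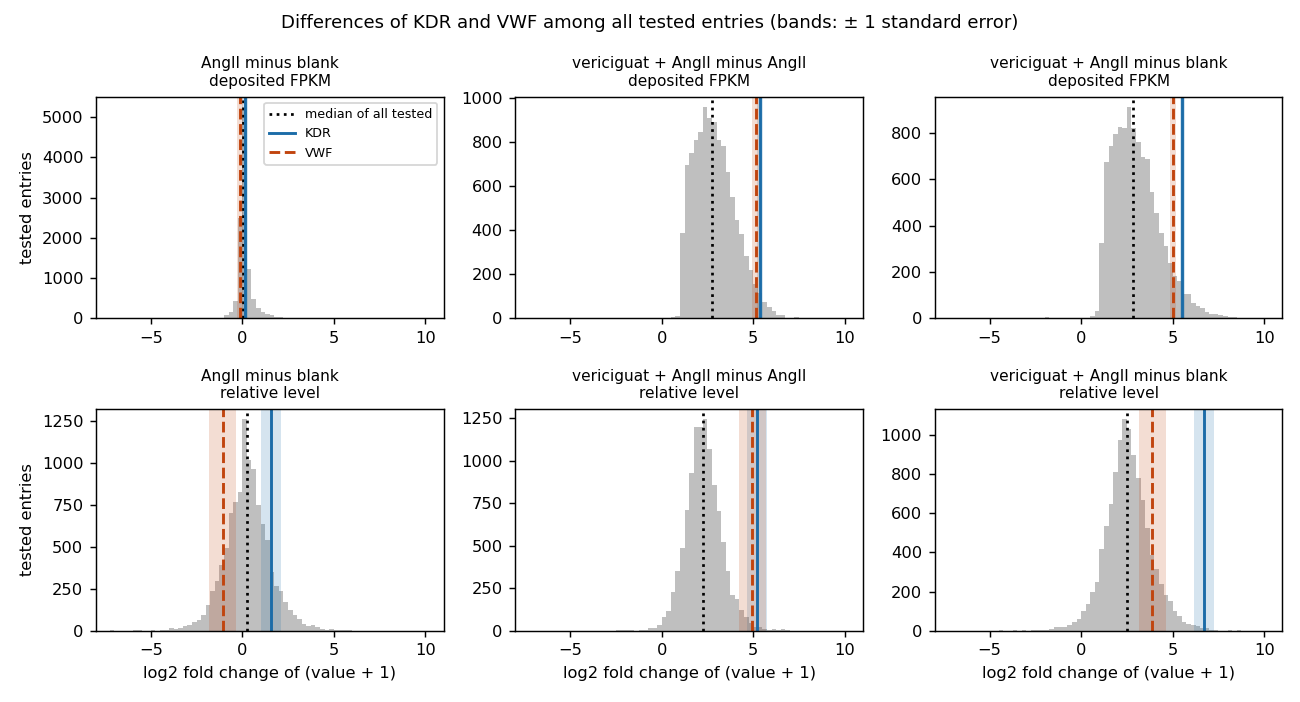
Histograms of the log2 fold changes of all tested entries (horizontal axis, in log2 of value + 1) for the 3 comparisons, with FPKM in the upper row and ppm in the lower row. The solid line is KDR, the dashed line VWF and the dotted line the median, with bands of ± 1 SE. With vericiguat + AngII against AngII both members stand at the right edge, 2.93 and 2.68 above the median on the relative scale, and with AngII against blank they lie on either side of it.

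Scalings that set the libraries level by a broad set of entries left smaller differences and the same calls. Median-ratio scaling was applied to the ppm values, over 3813 entries above 0 in all libraries. In scaled ppm, the levels of KDR were 1.47, 3.67 and 4.77 with AngII alone and 27.0, 35.9 and 39.3 with vericiguat + AngII. Those of VWF were 1.58, 6.56 and 2.29 and then 28.8, 29.9 and 26.7. KDR was higher by 3.10 (adjusted p = 0.00216) and VWF by 2.88 (adjusted p = 0.00303) on this scale, where 9.08% of all entries were called higher. With ADORA1-2 left out of the sum the differences were 3.92 (adjusted p = 0.00338) and 3.70 (adjusted p = 0.00708), with 12.3% called higher, and with quantile normalization they were 3.08 and 2.86, with 6.28% called higher. Both members remained among the called entries when the called share fell from 76.9% to 6.28%. They passed the filter only through the vericiguat + AngII libraries, where they are high. Their calls, ranks and distances above the median in this comparison and against blank are therefore not counted as support.

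The comparison of vericiguat + AngII with blank parted the members on the relative scale, and much less in FPKM. KDR was higher by 6.73 on the relative scale (adjusted p = 1.59e-06) and VWF by 3.88 (adjusted p = 0.000695), with 78.9% of all entries called higher and a median of 2.52. KDR lay 4.22 above that median, and 31 entries (0.285%) exceeded it. VWF lay 1.36 above the median, and 1411 entries (13%) had a larger difference. In FPKM the differences were 5.53 for KDR and 5.02 for VWF, 2.70 and 2.18 above the median of 2.83, with 99.3% of entries called higher. Every vericiguat + AngII library was above every blank library for both members, as for 84.3% of entries in ppm, with p = 0.1 in the exact two-sided permutation test. The size for KDR depends on the pseudocount, since its blank values were 0, whereas VWF was above 0 in every library.

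For VWF this comparison also varied with the blank libraries and the scale. Its relative difference was 4.47 (adjusted p = 0.000239) without blank library 1, 3.23 (adjusted p = 0.000892) without blank library 2 and 3.94 (adjusted p = 0.00334) without blank library 3. With median-ratio scaling it was 1.63 (adjusted p = 0.0253), where 26.5% of entries were called higher, and with ADORA1-2 left out 2.22 (adjusted p = 0.0310), where 33.4% were. KDR was called at 5.11 (adjusted p = 9.68e-05) and 7.08 under the same scalings, and at 6.73 (adjusted p = 3.36e-05) without blank library 3. In plain ratios of means in ppm, VWF was 2.49 times the median ratio of all entries against blank, and 20.2% of entries had a larger ratio.

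**Figure D3:**
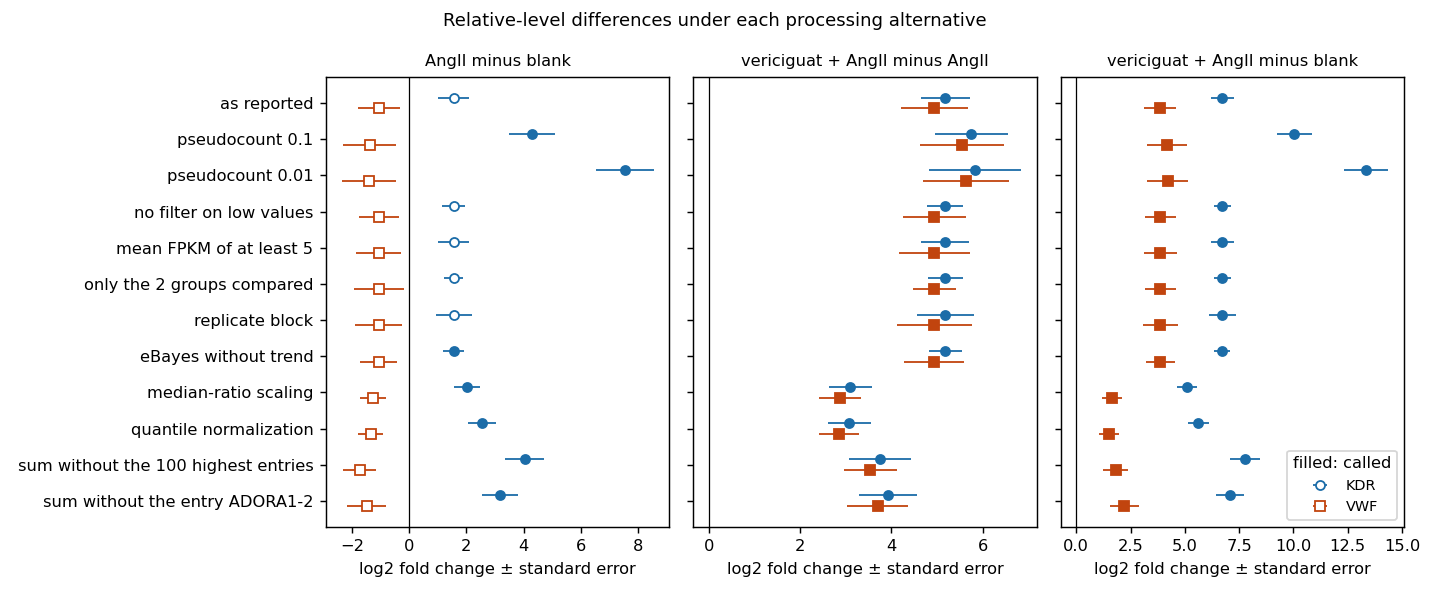
Relative-level differences of KDR (circles) and VWF (squares) with their SE under the processing alternatives named on the left, for the 3 comparisons, on the log2 fold change axis. Filled symbols passed the test. Both members are filled throughout in the comparisons of vericiguat + AngII with AngII and with blank, VWF is open throughout in AngII against blank, and KDR changes from open at 1.55 to filled there, for example at 3.16 with ADORA1-2 left out.

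Side by side, KDR and VWF had like levels in the vericiguat + AngII libraries. The ratio of KDR to VWF FPKM there was 0.936, 1.20 and 1.47. In the AngII libraries it was 0.930, 0.559 and 2.09, and in the blank libraries it was 0. The ranges in the vericiguat + AngII group overlapped, 39.3 to 50.3 FPKM for KDR and 34.2 to 42.0 FPKM for VWF, so no order of the members holds there. As the difference in log2(ppm + 1), KDR was below VWF by -3.79 to -1.32 in the blank libraries, while the difference was -0.65 to 0.69 in the AngII libraries and -0.09 to 0.55 in the vericiguat + AngII libraries. On this scale the blank range was apart from the others, which overlapped. In log2(FPKM + 1) the ranges of all 3 groups overlapped, at -0.48 to -0.08, -0.14 to 0.10 and -0.09 to 0.54. In these bulk samples fewer cells of a type and less RNA per cell cannot be told apart.

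The endothelial list held 38 genes including both members, of which 10 were listed by symbol and 8 passed the filter on low values. The vascular adhesion and receptor genes PECAM1, CDH5, TEK, TIE1 and FLT1 were not among the symbols, and the 20346 entries named by LOC numbers were not analysed here by gene name. Besides KDR and VWF, the tested genes were AQP1 (a water channel), CAV1 (the coat protein of caveolae), PODXL (a sialomucin of the endothelial surface), THBD (the thrombin receptor thrombomodulin), SELP (P-selectin, which is stored with VWF) and EDN1 (the precursor of the vasoconstrictor endothelin-1). Only AQP1, CAV1 and THBD would have passed the filter without the vericiguat + AngII libraries, so the counts describe the list and support nothing about it. On the relative scale 7 of the 8 were called higher with vericiguat + AngII than with AngII, beside 76.9% of all entries, and SELP was at 1.00 (adjusted p = 0.249). Against blank 5 were higher, beside 78.9% of all entries, and 1 lower, and with AngII against blank none was higher and 2 were lower.

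AQP1, CAV1, PODXL and THBD differed from KDR and VWF in their level without vericiguat. AQP1 was at 33.4, 6.19 and 17.9 FPKM in the blank libraries, 9.13, 28.9 and 10.4 FPKM with AngII and 1182, 1162 and 1094 FPKM with vericiguat + AngII. CAV1 was at 2.45, 0.697 and 1.90, then 4.31, 3.34 and 3.19, then 276, 268 and 288 FPKM. PODXL was at 1.12, 0.286 and 0.695, then 0.788, 1.92 and 0.262, then 67.8, 74.0 and 87.1 FPKM. THBD, whose treated levels were close to those of the members, was at 6.20, 1.32 and 3.10, then 0.994, 3.07 and 0.605, then 37.3, 37.9 and 52.2 FPKM. All of them were above KDR and VWF in every blank and AngII library. In FPKM their treated values were above all the other values of the same gene. The same held for 99.7% of tested entries against AngII and 99.6% against blank. In ppm THBD overlapped, at 199.9 in blank library 1 and at 87.5, 88.5 and 120.3 in the treated libraries. On log2(FPKM + 1) the differences from AngII were 6.24 for AQP1, 5.92 for CAV1, 5.36 for PODXL and 4.19 for THBD, against 5.38 for KDR and 5.13 for VWF. In ppm they were 3.31, 3.21, 3.53 and 2.00, against 5.18 and 4.94.

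SELP and EDN1 went another way with AngII. SELP was at 1.91, 0.129 and 1.06 FPKM in the blank libraries, was listed at 0 in all AngII libraries and was at 1.05, 0.196 and 0.247 FPKM with vericiguat + AngII. EDN1 was at 1.03, 0.069 and 0.361 FPKM, at 0 in all AngII libraries, and at 3.83, 2.92 and 4.17 FPKM. These were the genes called lower with AngII than with blank on the relative scale, SELP by -4.34 (adjusted p = 0.0120) and EDN1 by -3.35 (adjusted p = 0.0268), where 1.04% of all entries were lower. SELP was also lower with vericiguat + AngII than with blank (-3.34, adjusted p = 0.00278), as were 0.294% of all entries. In FPKM no gene of the list was called between AngII and blank.

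The calls with vericiguat + AngII against AngII depended on the scale for AQP1, CAV1, PODXL and THBD. Those of KDR, VWF, EDN1 and SELP were the same on every scale tried for the list. With AngII against blank, the call of KDR depended on the scale and that of SELP did not. Other scalings were tried for the lists after the data were seen. With median-ratio scaling KDR, VWF and EDN1 were called higher with vericiguat + AngII than with AngII, beside 9.08% of all entries. The differences of AQP1 (0.98), CAV1 (0.89), PODXL (1.26) and THBD (-0.27) no longer passed the test. The adjusted p of these 4 genes was 0.0967, 0.125, 0.183 and 0.760. CAV1 was still called higher with quantile normalization (1.27, adjusted p = 0.0386) and with ADORA1-2 left out (1.49, adjusted p = 0.0186). So were 6.28% and 12.3% of all entries. AQP1, PODXL and THBD were called with neither. With median-ratio scaling against blank, KDR, VWF and CAV1 were called higher, beside 26.5% of all entries. SELP, EDN1 and THBD were called lower, as were 4.27% of all entries. THBD was at -2.23 on that scale (adjusted p = 0.00671) and at 0.21 in ppm, while KDR and VWF were higher on both.

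**Figure D4:**
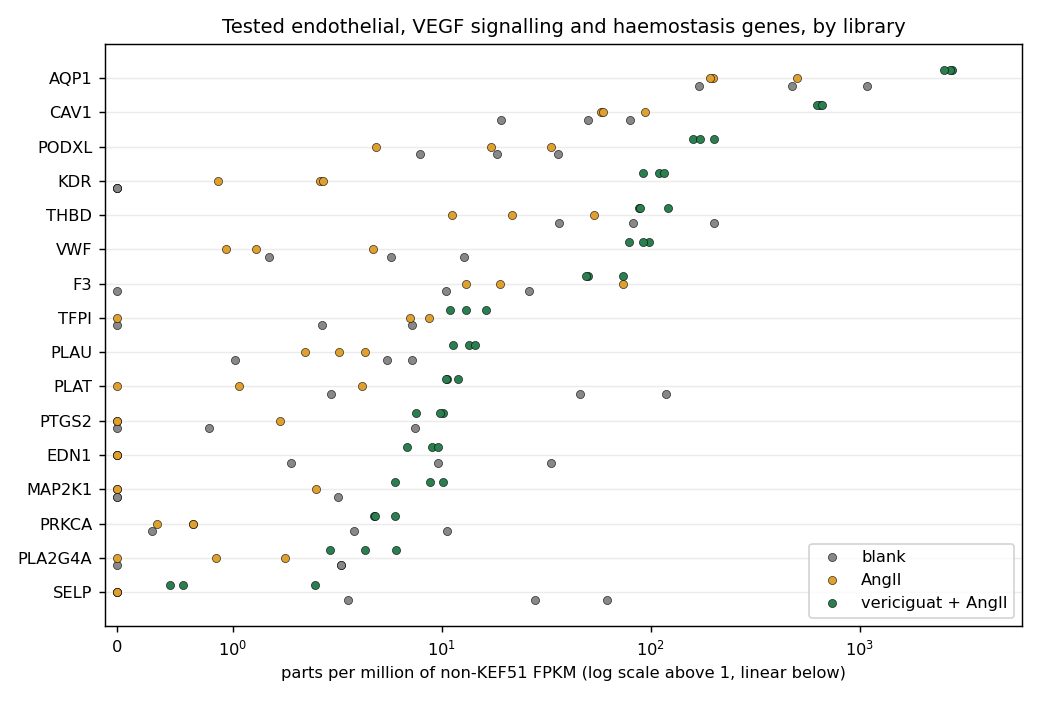
Level of each tested gene of the endothelial, VEGF signalling and haemostasis lists in the 9 libraries, in ppm of the non-KEF51 sum on a horizontal axis that is logarithmic above 1 and linear below. Each point is a library, coloured by group. KDR and VWF lie at 79.0 to 116 ppm in the vericiguat + AngII libraries and at most at 12.8 ppm in the others, whereas the blank and treated points of THBD overlap.

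The VEGF signalling list held 46 genes downstream of or around KDR, of which 7 were listed by symbol and 5 passed the filter. They were KDR, the kinases MAP2K1 and PRKCA, and PTGS2 and PLA2G4A, enzymes of prostaglandin synthesis. All 5 passed the filter only through the vericiguat + AngII libraries, where they are high, so their calls in that comparison, which 76.9% of all entries shared, are not counted as a result. The difference of KDR on the relative scale, 5.18, was followed by 2.86 for PTGS2, 2.59 for MAP2K1, 1.99 for PRKCA and 1.61 for PLA2G4A. These 4 genes reached 1.27 to 4.32 FPKM in the vericiguat + AngII libraries and were at 0.330 FPKM or below elsewhere. NOS3, the endothelial nitric oxide synthase, which KDR signalling activates and whose product stimulates the enzyme that vericiguat targets, stayed at 0.177 FPKM or below in all 9 libraries and was not tested. With median-ratio scaling KDR was called higher in each of the 3 comparisons, and no other gene of this list passed the test. On that scale 11.1% of all entries were called higher with AngII against blank. With vericiguat + AngII the shares were 9.08% against AngII and 26.5% against blank, and these calls are likewise not counted as a result. With quantile normalization PRKCA was called lower than blank with AngII (-1.86, adjusted p = 0.0195) and with vericiguat + AngII (-1.97, adjusted p = 0.0105). So were 5.21% and 5.16% of all entries. No VEGF ligand was listed by symbol.

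Of the 38 haemostasis genes chosen around VWF, 16 were listed and 7 passed the filter. On the relative scale VWF, THBD and the plasminogen activator PLAU were called higher with vericiguat + AngII than with AngII, and VWF, PLAU and the coagulation initiator F3 were called higher than with blank. These are 3 of 7 in each comparison, beside 76.9% and 78.9% of all entries, and of the 7 genes THBD alone would have passed the filter without the vericiguat + AngII libraries. SELP was lower in both comparisons with blank. The difference of VWF from AngII, 4.94, was the highest of the 7. F8, the coagulation factor that VWF carries, was listed at 0 in all blank and AngII libraries and was at 0.841, 0.960 and 1.39 FPKM with vericiguat + AngII. The platelet integrin gene ITGA2B, expressed in megakaryocytes, was at 0.685 FPKM or below throughout. F9, F10, F11 and PROC were at 0 in all 9 libraries, but F7 and SERPINF2 of the same list were not. With vericiguat + AngII, F7 was at 0.08, 0 and 0.188 FPKM, and SERPINF2 was at 0.123 FPKM or above. With median-ratio scaling VWF was the gene of this list called higher, in both comparisons with vericiguat + AngII. On that scale 9.08% of all entries were called higher against AngII and 26.5% against blank. On that scale THBD, SELP and the plasminogen activator PLAT were called lower with AngII than with blank, beside 4.72% of all entries, and lower with vericiguat + AngII than with blank, where PLAT was at -3.36 (adjusted p = 0.0140).

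In FPKM the summed levels of the marker lists of other cell types were also highest in the vericiguat + AngII libraries. In ppm this held for every list except that of macrophages. The sum of the 8 listed endothelial genes other than the members was 8.69 to 46.4 FPKM in the blank, 14.5 to 37.5 in the AngII and 1527 to 1569 in the vericiguat + AngII libraries, or 240 to 1497, 268 to 650 and 3519 to 3680 ppm. For the cardiomyocyte markers the sums were 192 to 280, 982 to 1983 and 9125 to 14913 ppm, for 5 of 12 smooth muscle and pericyte markers 35.2 to 833, 104 to 135 and 1086 to 1783 ppm, and for the 4 fibroblast markers 47.0 to 797, 123 to 562 and 848 to 1236 ppm. On the relative scale none of the 4 fibroblast markers passed the test with vericiguat + AngII against AngII, while 5 of 6 tested cardiomyocyte markers and all 5 smooth muscle and pericyte markers were called higher, beside 76.9% of all entries. The haemoglobin genes HBA and HBB2, which mark red blood cells, summed to 4247 to 12834, 4460 to 5752 and 19620 to 34873 ppm. CD14, the listed one of 12 macrophage markers, was at 0.151 to 1.14, 0 to 0.202 and 5.16 to 8.56 FPKM. At 0 in a whole group were NPPA of the cardiomyocyte list in the blank group and SELE, SELP and EDN1 of the endothelial list in the AngII group. The part of these cells in the differences of KDR and VWF was not tested.

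Entries with the most similar profile were ranked by the Pearson correlation of log2(ppm + 1) over the 9 libraries, among 1084 tested entries with a symbol. For KDR these were ADAM2 (r = 0.994), ODF2 (0.993), FCSK (0.992), SPEG (0.992) and CUNH10orf88 (0.992), and for VWF MAP1A (0.994), FHIP1B (0.994), ACE (0.993), USF1 (0.992) and RUSF1 (0.990). ADAM2 was at 0 in the blank group and at 0.046, 0.058 and 0.056, then 6.28, 9.18 and 6.93 FPKM, the same order of groups as KDR at a lower level. USF1, whose values were above those of VWF throughout, was at 0.956, 0.225 and 0.513, then 0.201, 0.503 and 0.305, then 44.3, 53.5 and 58.3 FPKM. High correlations were common, with r above 0.9 for 3065 of 10894 entries (28.1%) with KDR and 3126 (28.7%) with VWF. The correlation between the members was 0.868, and 4082 entries were closer to KDR than VWF was. The 9 points fall into groups that share treatment and scaling, so these values describe mainly the difference between the vericiguat + AngII libraries and the rest.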

How the data were processed

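RNA of CFs was sequenced in 9 libraries, grouped by the treatment in the labels. The authors deposited gene expression as FPKM in a single table, and every value column matched a sample. The submitters' processing notes name FastQC 0.11.9, Trimmomatic 0.39, HISAT2 2.2.1, featureCounts 2.0.1 and OryCun2.0, a rabbit assembly. Their roles and order are not given in the sources used here. The depth is unknown, and no interval for counting error can be given.

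KDR and VWF and all gene lists were chosen with earlier results of these data known. Named genes were the members, the tested genes of the lists, and the 5 entries with a symbol closest to each member by correlation. Relative levels are FPKM divided by the sum of the entries without KEF51 names, times 1000000. Tests used limma 3.58.1 in R 4.3.3 (lmFit and eBayes with trend) on log2(value + 1), all 9 libraries in a single fit, for entries that reached 1 FPKM in 3 or more libraries, and exact two-sided permutation tests. Fold changes are on the log2(value + 1) scale, which understates the change of low genes. The fit was tested on simulated data. Alternatives were other pseudocounts, filters, scalings, model settings and each library left out in turn. Leaving ADORA1-2 out of the sum, and the scalings of list counts, were chosen after seeing the data. Promoter sequence came from the RefSeq table for GRCr8.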

Additional observations from a re-analysis of the deposited data

How the results depend on the processing

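The 3 comparisons of KDR and VWF, in FPKM and in ppm, gave 12 results with 222 values under the alternatives. Of these, 214 kept the direction and the side of the threshold and 0 reversed, and for 10 of the results all values did. The other 8 values were all for KDR with AngII against blank, which then passed the test: 3.43 in FPKM with a pseudocount of 0.01, and in ppm 4.29 and 7.53 with pseudocounts of 0.1 and 0.01, 1.55 without a trend in eBayes (adjusted p = 0.0404), 2.02 with median-ratio scaling, 2.54 with quantile normalization, 4.03 without the 100 highest entries and 3.16 without ADORA1-2. Leaving out each library in turn gave 1.38 to 1.87 (adjusted p from 0.0537 to 0.326). In ppm the ranges over the alternatives with vericiguat + AngII against AngII were 3.08 to 5.83 for KDR and 2.86 to 5.63 for VWF, and against blank 5.11 to 13.4 and 1.51 to 4.47. The share of entries called in either direction, 6.42%, 77.0% and 79.2% in the 3 comparisons in ppm, was 15.8%, 10.7% and 30.7% with median-ratio scaling and 11.8%, 12.8% and 35.2% without ADORA1-2. Libraries with the same number showed no shared deviation (correlations from -0.0583 to 0.0930 over the 9 pairs in ppm). Pairs with different numbers had correlations from -0.0815 to 0.0704. With 3 libraries per group this check cannot decide whether the numbers pair the libraries. With a replicate block no call of the members changed (KDR 5.18, adjusted p = 6.74e-05, and VWF 4.94, adjusted p = 0.000537, with vericiguat + AngII against AngII), and the entries called with AngII against blank went from 699 to 448 in ppm and from 169 to 7 in FPKM. With no counts, the precision of values near 0, such as KDR and VWF in the blank and AngII libraries, is unknown.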
